A study of Mus musculus with 5 samples.

Results

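The immunoglobulin genes were examined in pro-B cells that lacked or carried the transcription factor MEF2C. Members were all probe sets with at least 1 annotated gene symbol of an immunoglobulin heavy, kappa or lambda chain variable or constant segment, and Ighmbp2 was left out. This rule, which used gene symbols and no measured value, found 21 of the 23809 probe sets on the array, 7 for the heavy chain (Igh), 12 for the kappa chain (Igk) and 2 for the lambda chain (Igl). They carry 18 different gene symbols, which the RefSeq annotation places on chromosomes 12 (heavy), 6 (kappa) and 16 (lambda).

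Pro-B cells (B220+IgM−CD43+CD24+) were sorted fresh from bone marrow at 9 months of age and hybridised to 5 Affymetrix arrays. The Mef2c-deficient group held 2 arrays from Vav-Cre Mef2cfl/fl mice, in which the Vav promoter drives Cre recombinase, and with it the loss of the floxed Mef2c exon, in haematopoietic cells. The control group held 3 arrays, and the control genotypes named in the methods (Mef2cfl/fl, Mef2cfl/+ or Vav-Cre Mef2cfl/+) include mice with Cre and 1 floxed allele, while no source used here says which array had which genotype. The samples were independent sorts, but whether an array came from 1 mouse or a pool is not given either, so p-values measure the spread between these arrays.

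An immunoglobulin is built from 2 kinds of chain, heavy and light, and each chain joins a variable region, which binds antigen, to a constant region. In the pro-B cell the heavy chain locus is cut and joined by the RAG recombinase, first D to J and then V to DJ, and a productive joint lets the cell make the mu heavy chain encoded with Ighm. The mu chain pairs with the surrogate light chain to form the pre-B cell receptor, and the kappa and lambda loci are joined mainly at the following pre-B cell stage. Loci that are not yet joined can also be transcribed from promoters of single V segments or upstream of a constant region, as germline transcripts. The arrays measured RNA under each probe set, not the joints, and the probe sets were designed on given cDNAs, so that a V segment probe set can also bind related V segments.

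Ighm, the constant region of the mu chain and of membrane IgM, was far lower in Mef2c-deficient than in control pro-B cells by both probe sets annotated to it alone. Probe set 1425247_a_at had deposited intensities of 15.2 and 77.1 on the Mef2c-deficient arrays, against 37349, 32298 and 15655 on the control arrays. Both Mef2c-deficient values lay below the median of all probe sets on their arrays, at percentiles 4.63 and 31.4, while the control values lay at percentiles 97.0, 96.7 and 93.1. The means were 46.2 ± 43.8 in Mef2c-deficient cells (SD, n = 2) and 28434 ± 11351 in control cells (SD, n = 3). On the log2 scale the deposited values of Mef2c-deficient cells minus those of control cells gave a fold change of −9.60 with a standard error of 0.82 (limma, adjusted p = 0.102 over all probe sets). This was the lowest log2 fold change among the 23809 probe sets.

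The other probe set annotated to Ighm alone behaved alike. Probe set 1427870_x_at had intensities of 22.0 and 76.2 in Mef2c-deficient cells, against 9681, 12333 and 5012 in control cells. Its percentiles on the arrays were 8.70 and 31.2 in Mef2c-deficient cells and 91.0, 92.6 and 84.4 in control cells. The means were 49.1 ± 38.3 in Mef2c-deficient cells (SD, n = 2) and 9009 ± 3707 in control cells (SD, n = 3). Its log2 fold change of −7.69 (standard error 0.69, limma adjusted p = 0.102) was next to the lowest in the table, and no other probe set reached −7. The suffix of this probe set marks probes that can bind more than 1 transcript.

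The size of these folds depends on the scale of the deposited values. The deposited values appear to be e raised to the log2 signal of robust multiarray averaging (RMA), since 296 to 422 values per array exceed 65535, the largest reading of the scanner, and the natural logarithms run from 1.15 to 14.5. As deposited, Ighm was 778-fold and 206-fold lower by its 2 probe sets, and on that reading the folds in signal were 101 and 40.2. A deposited fold of 2 then stands for a signal fold of 1.62, and every log2 fold change given here is one of deposited values. Detection calls were not analysed here, so whether the Ighm values of Mef2c-deficient cells exceeded background is unknown. With every value below its array median set to that median, a check chosen after the data were seen, the log2 fold changes were −6.92 and −5.26, still the lowest and next to the lowest of the table, with deposited folds of 121 and 38.3 and signal folds of 27.8 and 12.5.

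**Figure D1:**
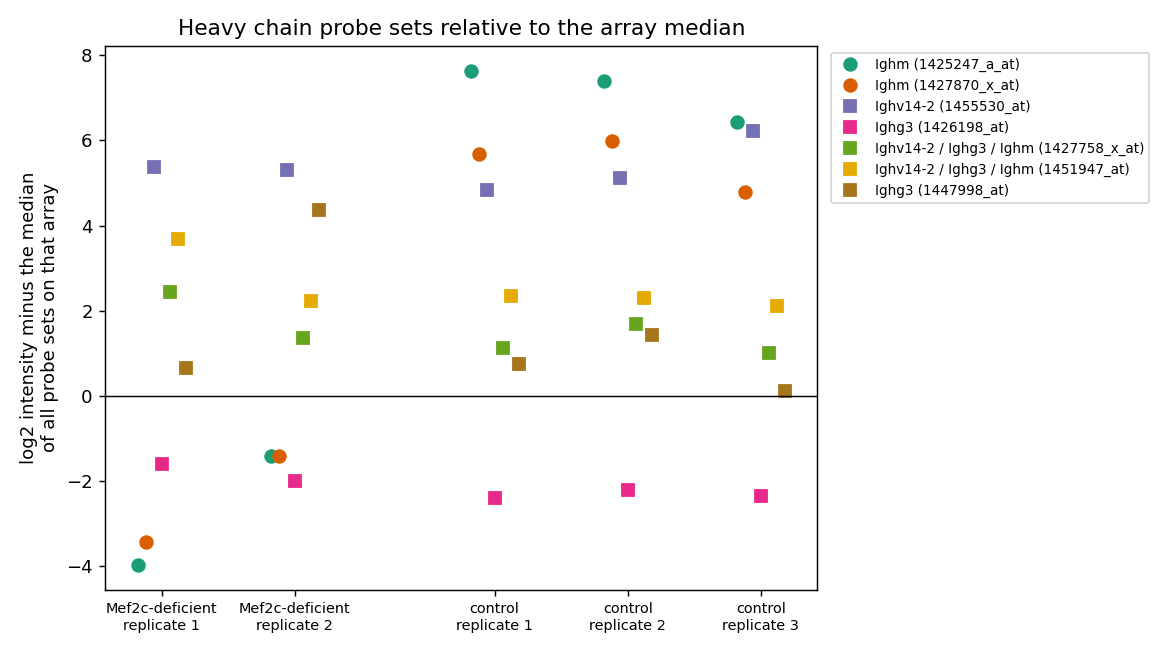
Heavy chain probe sets on each array, as log2 intensity minus the median of all probe sets on that array (vertical axis), with the 2 Mef2c-deficient arrays left of the 3 control arrays. Circles mark the 2 probe sets of Ighm alone, which lay between −3.97 and −1.40 in Mef2c-deficient cells and between 4.79 and 7.64 in control cells, and squares mark the other 5, which kept their side of the median on all arrays.

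A call was a fold change of at least 2 in the deposited values with an unadjusted limma p of at most 0.05. These are the numbers the study names as thresholds, but the study also left out probe sets by detection call, and a fold of 2 in signal, on the reading of the scale given above, is a stricter cut that gave 2025 lower and 1089 higher probe sets in place of 3206 and 2401. All 3 members named below as called passed that cut too. By this rule 2 of the 21 immunoglobulin probe sets were called lower, both of Ighm, against 13.5% of all probe sets. 1 of 21, Igkv4-72, was called higher, against 10.1% of all probe sets, and 18 were not called in either direction. Other scalings changed the higher count, to 5 after a further quantile normalisation or cyclic loess and 10 after centring on housekeeping genes. Both Ighm calls held under each. Of the 9 housekeeping genes measured, 5 were themselves called lower, and centring on them raised the median log2 fold change of all probe sets by 0.76. As deposited, no probe set of the array had an adjusted p under 0.05 (limma, smallest 0.102), although 7038 (29.6%) had an unadjusted p under 0.05. Both Ighm probe sets lay in the eighth of 10 equal groups of probe sets by mean level, from dim to bright, in which 27.3% were called lower. The called share of the members, 3 of 21, was below the 23.5% called in either direction over the array, and the count by itself does not set the members apart.

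The other 5 heavy chain probe sets were not called as deposited. All 5 had a log2 fold change above 0, between 0.17 and 1.97 with a median of 0.85. Ighv14-2 turned to −0.058 when arrays were centred on their medians. Over all probe sets, 13419 of 23809 log2 fold changes were above 0. The median over all probe sets was 0.19, but it depended on level. Over the 11905 probe sets that remained when dim ones were left out, it was −0.68. The calls of these 5 heavy chain probe sets depended on the scaling. Ighv14-2 was called higher after a further quantile normalisation (1.09) and cyclic loess (1.20), and 1451947_at after both and after housekeeping centring (1.58, 1.53 and 1.70). Housekeeping centring, which raised the median of all probe sets to 0.94, also gave higher calls for both Ighg3 probe sets and for 1427758_x_at. Ighv14-2, a heavy chain variable segment, had intensities of 9860 and 7997 in Mef2c-deficient cells at probe set 1455530_at, against 5356, 6702 and 13598 in control cells. Both Mef2c-deficient values lay inside the control range (log2 fold change 0.17, standard error 0.47).

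Ighg3, the constant region of IgG3, a class that B cells make only after switching, had 2 probe sets of its own, and they differed in level and in pattern. Probe set 1426198_at was dim, below the array median on all 5 arrays, with 78.5 and 51.1 in Mef2c-deficient cells against 35.7, 42.0 and 35.8 in control cells. The groups did not overlap there, and the log2 fold change was 0.75 (standard error 0.29, limma adjusted p = 0.17). Probe set 1447998_at read 376 and 4185 in Mef2c-deficient cells, against 316, 521 and 198 in control cells. Its high value stood on Mef2c-deficient replicate 2 alone, since replicate 1 lay within the control range, and the log2 fold change of 1.97 had a standard error of 1.11 (limma adjusted p = 0.262).

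Both remaining heavy chain probe sets are annotated to Ighv14-2, Ighg3 and Ighm together, so their values cannot be given to 1 of these genes. Probe set 1427758_x_at had 1284 and 522 in Mef2c-deficient cells, against 412, 620 and 366 in control cells. Probe set 1451947_at had 3074 and 951 in Mef2c-deficient cells, against 951, 951 and 779 in control cells. On both, Mef2c-deficient replicate 1 was the brightest array and replicate 2 fell within or at the edge of the control range. The log2 fold change was 0.85 on the first (standard error 0.49) and 0.94 on the other (standard error 0.55), and neither was called.

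**Figure D2:**
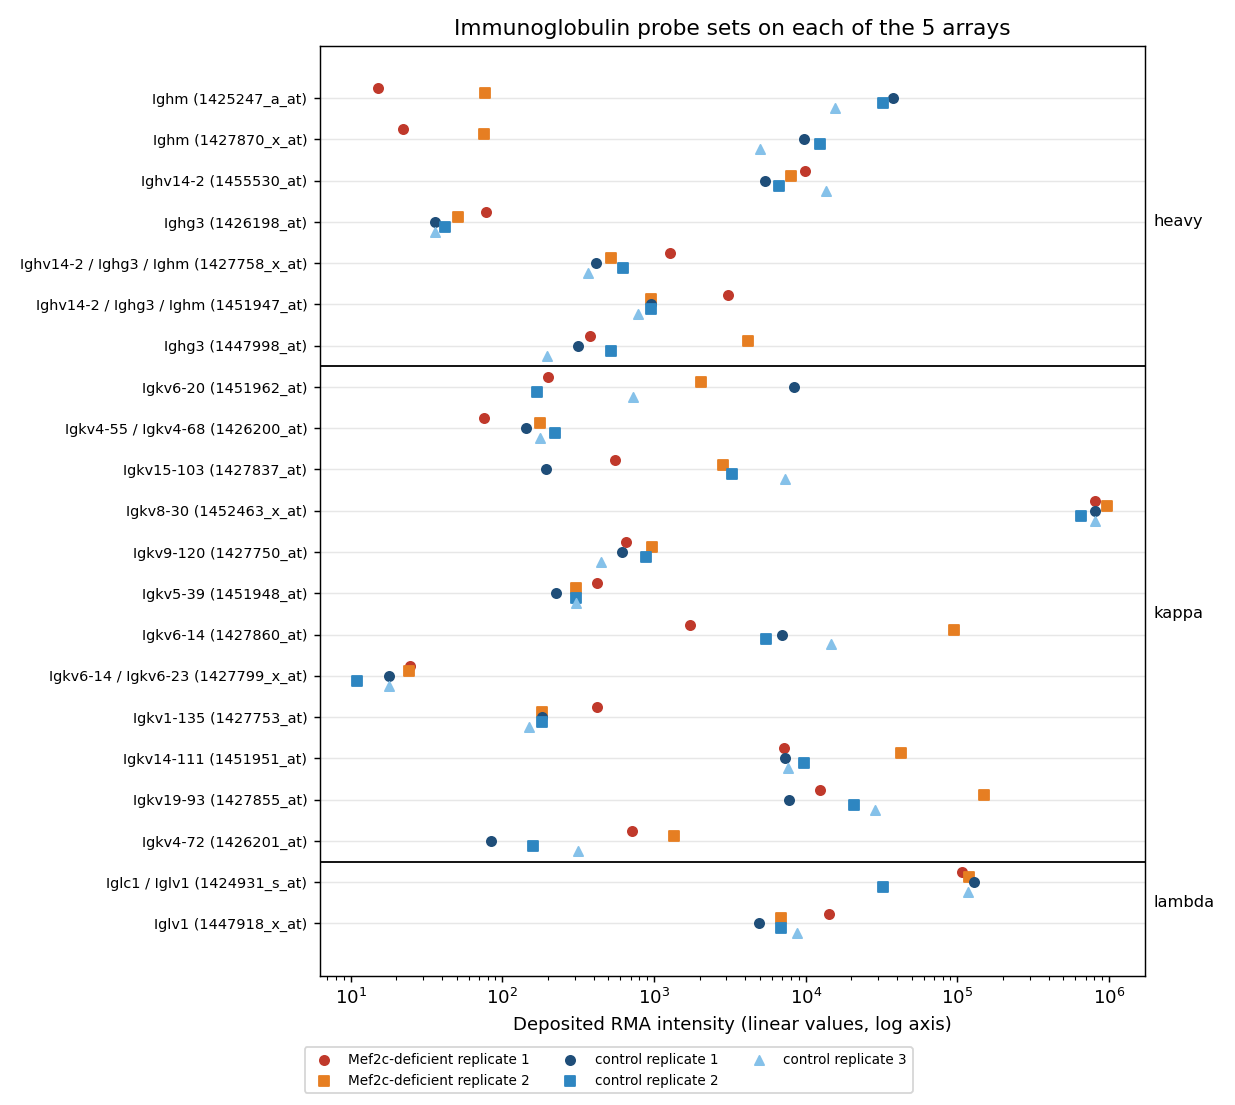
Deposited intensity (horizontal log axis) of the 21 immunoglobulin probe sets, 1 point per array, grouped by locus and ordered by log2 fold change within each locus. Warm colours are the 2 Mef2c-deficient arrays and blue colours the 3 control arrays, which lie far apart for Ighm (15.2 to 77.1 against 5012 to 37349) and are mixed in most other members.

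All 12 kappa chain probe sets carry variable segment symbols only. Igkv4-72, 1 of the many kappa variable segments, was the single member called higher. Probe set 1426201_at had intensities of 715 and 1351 in Mef2c-deficient cells, against 84.1, 159 and 317 in control cells. Both Mef2c-deficient values exceeded all 3 control values, with means of 1033 ± 449 (SD, n = 2) in Mef2c-deficient cells and 187 ± 119 (SD, n = 3) in control cells. The log2 fold change was 2.60 with a standard error of 0.66, a deposited fold of 6.07 and a signal fold of 3.49 (limma, adjusted p = 0.111). In the sixth of those 10 groups, which holds Igkv4-72, 12.8% of probe sets were called higher. Without Mef2c-deficient replicate 2 the log2 fold change was still 2.14, but the call was lost in that fit of 1 array against 3, in which only control arrays supply the spread.

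The other 11 kappa probe sets were not called, with log2 fold changes from −0.66 to 1.36. Among the scalings, Igkv14-111 was called higher after a further quantile normalisation (1.90) and cyclic loess (2.12), and 4 others only after housekeeping centring. Leaving out 1 Mef2c-deficient array moved several of these log2 fold changes further from 0, as given below. Over all 12, 9 log2 fold changes were above 0 and 3 were below, and the median was 0.50. Over all probe sets 13419 of 23809 were above 0. The median was 0.19 over all probe sets and −0.68 when dim probe sets were left out. The 3 below 0, Igkv6-20, Igkv15-103 and the probe set of Igkv4-55 and Igkv4-68, all turned above 0 after housekeeping centring, to 0.094, 0.35 and 0.14. The groups did not overlap in 2 of the 12, Igkv4-72 and the probe set shared by Igkv6-14 and Igkv6-23, both higher. Over all 21 members the groups did not overlap in 2 lower and 3 higher probe sets, against 23.5% lower and 27.5% higher (51% in all) of all probe sets. The shared probe set 1427799_x_at was dim, below the array median on every array, with 24.8 and 24.2 in Mef2c-deficient cells against 18.0, 11.1 and 18.0 in control cells.

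Of the kappa variable segments, 3 were far brighter on Mef2c-deficient replicate 2 than on any other array. All 3 lay in the brightest of those 10 groups by mean level, so they were not dim on the other arrays. Igkv6-14 had 1721 and 94405 at probe set 1427860_at in Mef2c-deficient cells, against 6952, 5455 and 14785 in control cells. Igkv19-93 had 12330 and 148634 in Mef2c-deficient cells, against 7718, 20893 and 28815 in control cells. Igkv14-111 had 7186 and 42252 in Mef2c-deficient cells, against 7273, 9808 and 7583 in control cells. On Mef2c-deficient replicate 2 these 3 segments were 6.39, 5.16 and 4.31 times the next brightest array, while replicate 1 lay within or below the control range. Their log2 fold changes were 0.63 for Igkv6-14 (standard error 1.75), 1.36 for Igkv19-93 (standard error 1.21) and 1.10 for Igkv14-111 (standard error 0.79). Each turned below 0 without that array, to −2.26, −0.44 and −0.18.

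Mef2c-deficient replicate 2 held the highest value of 6 of the 12 kappa probe sets, whereas it held the highest value of 20.6% of all probe sets with a single highest array. It held the lowest value of 0 of the 21 members, and of 24.6% of all probe sets with a single lowest array. Mef2c-deficient replicate 1 was the brightest array for 7 of the 21 members, as was replicate 2, against 35.6% and 20.6% of all probe sets. Control replicate 1 was the brightest for 3, control replicate 2 for 2 and control replicate 3 for 2. Over all probe sets these control shares were 11.5%, 9.74% and 22.5%.

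Other kappa segments varied as widely among control arrays. Igkv6-20 had 199 and 2040 in Mef2c-deficient cells, against 8365, 168 and 729 in control cells, a span of 49.7 times between its highest and lowest arrays. Igkv15-103 had 556 and 2867 in Mef2c-deficient cells, against 195, 3288 and 7310 in control cells, a span of 37.5 times. The groups overlapped in both, with log2 fold changes of −0.66 (standard error 1.93) and −0.41 (standard error 1.75), and a different control array was the brightest for each.

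The remaining kappa segments were steadier. Igkv8-30, among the brightest signals of the array, had 809433 and 973103 in Mef2c-deficient cells, against 809433, 651229 and 809433 in control cells (log2 fold change 0.24, standard error 0.25). Igkv1-135 had 422 and 182 in Mef2c-deficient cells, against 182, 182 and 150 in control cells, and Mef2c-deficient replicate 1 stood alone (log2 fold change 0.70, standard error 0.42). Without Mef2c-deficient replicate 2 the log2 fold change of Igkv1-135 was 1.31. The probe set of Igkv4-55 and Igkv4-68 read 75.4 and 178 in Mef2c-deficient cells, against 144, 221 and 178 in control cells. Its log2 fold change was −0.62 (standard error 0.46), and −1.24 without Mef2c-deficient replicate 2. Igkv5-39 and Igkv9-120 had log2 fold changes of 0.38 and 0.35, with standard errors of 0.29 and 0.40. Exactly equal values on at least 2 arrays, as in Igkv8-30, occurred in 7 of the 21 members and in 42.8% of all probe sets.

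**Figure D3:**
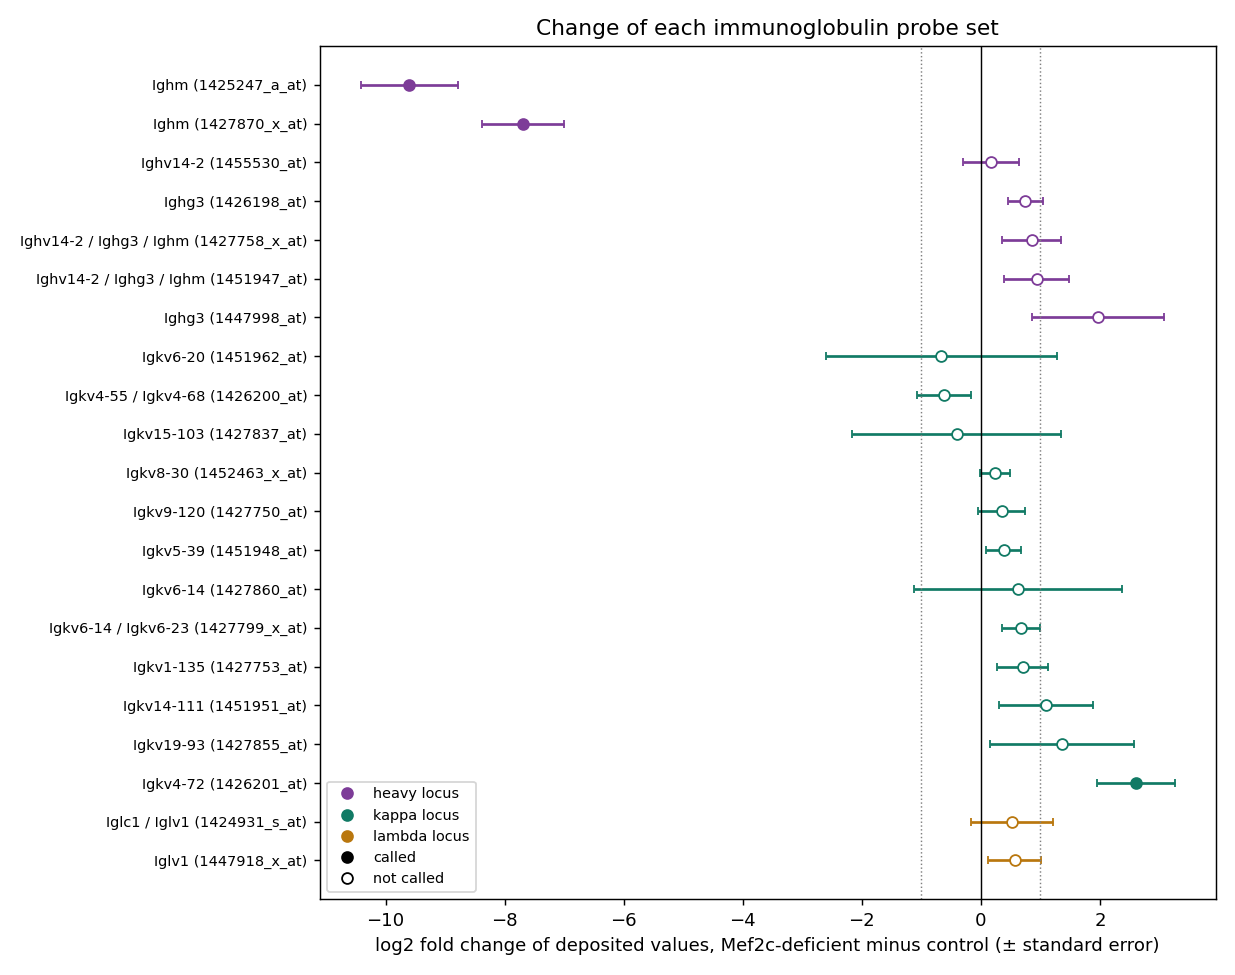
Log2 fold change of deposited values (horizontal axis, Mef2c-deficient minus control) with its limma standard error for the 21 immunoglobulin probe sets, coloured by locus, with filled points for the 3 that were called. The dotted lines mark a fold of 2, and the widest bars, with standard errors of 1.75 to 1.93, belong to the kappa segments Igkv6-14, Igkv15-103 and Igkv6-20.

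The lambda chain, the rarer light chain of the mouse, was represented by 2 probe sets, and neither was called as deposited. The probe set of Iglc1 (a lambda constant region) and Iglv1 (a lambda variable segment), 1424931_s_at, had intensities of 106727 and 118672 in Mef2c-deficient cells, against 127781, 32168 and 117479 in control cells. Its log2 fold change of 0.52 (standard error 0.69) rested on the low value of control replicate 2, and without that array it was −0.12. Probe set 1447918_x_at of Iglv1 had 14192 and 6821 in Mef2c-deficient cells, against 4903, 6821 and 8750 in control cells, a log2 fold change of 0.57 (standard error 0.45). It was called higher after a further quantile normalisation (1.49), cyclic loess (1.59) and housekeeping centring (1.32). The groups overlapped on both probe sets as deposited.

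By segment, 4 probe sets were annotated to constant regions alone, 14 to variable segments alone and 3 to both. The 2 called lower were constant region probe sets of the heavy chain, and the 1 called higher was a kappa variable segment. Over all 21 members the median log2 fold change was 0.57. With both Ighm probe sets set aside it was 0.63, with 16 of the other 19 above 0, against 13419 of 23809 over all probe sets. The standard errors of the members had a median of 0.55, against 0.39 over all probe sets.

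**Figure D4:**
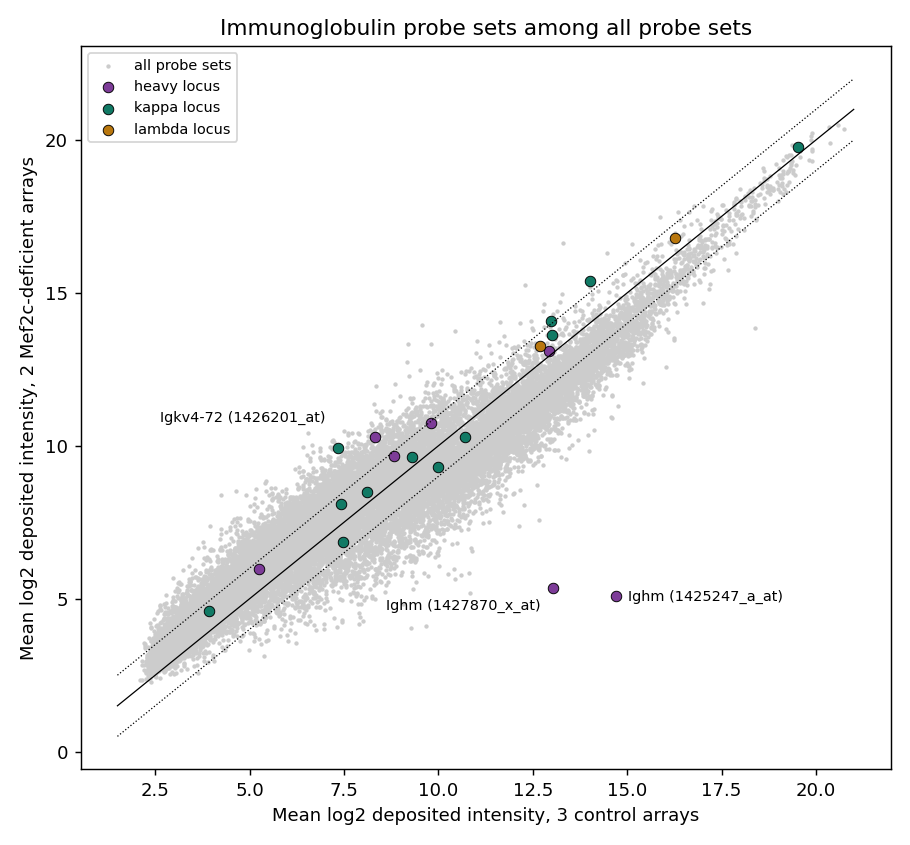
Mean log2 deposited intensity of every probe set in the 2 Mef2c-deficient arrays (vertical axis) against the 3 control arrays (horizontal axis), with immunoglobulin probe sets coloured by locus, the solid line at equal values and dotted lines at a fold of 2. Both Ighm probe sets lie apart below the cloud, at log2 fold changes of −9.60 and −7.69, and Igkv4-72 lies above its upper dotted line at 2.60.

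Kappa probe sets that bear a general symbol of the locus, and so fell outside the rule, were not called either. Igk probe set 1426178_at had 911 and 306 in Mef2c-deficient cells, against 1333, 338 and 494 in control cells (log2 fold change −0.20). Igk probe set 1427757_at had 1502 and 1109 in Mef2c-deficient cells, against 315, 1109 and 1109 in control cells (log2 fold change 0.82). Igk-V21 had 142845 and 110350 in Mef2c-deficient cells, against 148609, 86219 and 60169 in control cells (log2 fold change 0.45). The groups overlapped on all 3.

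Mef2c itself served as a check of the labels. Its probe set had 7379 and 6219 in Mef2c-deficient cells, against 14006, 20854 and 17220 in control cells, a log2 fold change of −1.34 (standard error 0.28, limma adjusted p = 0.103). Both Mef2c-deficient values were below all control values, although no source used here says whether the probe set lies in the floxed exon. The call was lost after a further quantile normalisation (−0.43), cyclic loess (−0.32) and housekeeping centring (−0.58).

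Partners of the mu chain were lower or not called. The probe set shared by Vpreb2 and Vpreb1, which encode the variable-like part of the surrogate light chain, had 20330 and 32969 in Mef2c-deficient cells, against 70276, 67401 and 67282 in control cells. It was called lower, with a log2 fold change of −1.40 (standard error 0.30, limma adjusted p = 0.103), a call that the same 3 scalings ended (−0.74, −0.48 and −0.64). Igll1, the constant-like part of the surrogate light chain, had 25064 and 26275 in Mef2c-deficient cells, against 73241, 32084 and 97663 in control cells, and was not called (log2 fold change −1.25, standard error 0.53, limma adjusted p = 0.19). Jchain, the joining chain of secreted IgM and IgA, had 90430 and 120415 in Mef2c-deficient cells, against 246376, 122424 and 122424 in control cells (log2 fold change −0.57, standard error 0.42).

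In the pathway lists the counts of called genes are read beside the 13.5% lower and 10.1% higher of all probe sets. Of the surrogate light chain and signal chain genes, 4 of 6 were measured by a probe set with 1 symbol and 0 were called, with a median log2 fold change of −0.20. All 3 genes of the recombinase and of TdT, the enzyme that adds bases at the joints, were measured and 0 were called, with a median of −0.85. That median is the value of Rag2, with 1878 and 2758 in Mef2c-deficient cells against 2781, 1098 and 22769 in control cells (standard error 1.33). All 3 genes were brightest on control replicate 3. Of 17 factors that bind immunoglobulin promoters and enhancers, 14 were measured and 0 were called, with a median of −0.34. Of 10 genes for folding and secretion of immunoglobulin, 1 was called lower and 0 higher, with a median of −0.23. The gene called was Pdia6, a disulphide isomerase of the endoplasmic reticulum, with 92.7 and 75.1 in Mef2c-deficient cells against 231, 138 and 341 in control cells (log2 fold change −1.41, standard error 0.45). This probe set was dim. Both Mef2c-deficient values and that of control replicate 2 lay below their array medians, which were 238, 203 and 193. Its call was lost after housekeeping centring (−0.65) and without either Mef2c-deficient array (−1.56 without replicate 1, −1.25 without replicate 2), control replicate 1 (−1.38) or control replicate 3 (−1.09).

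Genes beside the heavy chain locus were then read for their values, a choice made after those values were seen. Of the 10 nearest measured genes in RefSeq order, 5 on each side, 2 were called lower and 0 higher, against 13.5% and 10.1% of all probe sets. Tedc1, a gene of centriole assembly on the constant region side, had 10167 and 623 in Mef2c-deficient cells, against 28561, 18459 and 39917 in control cells (log2 fold change −3.46, standard error 1.23). Zfp386, a zinc finger gene on the variable segment side, had 834 and 1497 in Mef2c-deficient cells, against 2356, 1959 and 2702 in control cells (log2 fold change −1.05, standard error 0.35). Adam6a, which lies inside the locus, read 33.4 and 120 in Mef2c-deficient cells, against 33.4, 33.4 and 23.5 in control cells, and was not called.

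Markers of other cells were not even across the arrays. In bulk RNA, fewer cells of a type and less RNA per cell cannot be told apart. The summed level of 8 of 10 listed T and NK cell markers was 2905 and 47678 in Mef2c-deficient cells, against 2651, 3128 and 1993 in control cells, and 2 of the 8 were called higher, against 10.1% of all probe sets. The 2 called were dim and higher on both Mef2c-deficient arrays. Cd8a, a T cell co-receptor, read 111 and 186 in Mef2c-deficient cells against 24.7, 32.1 and 34.7 in control cells, and Ncr1, an NK cell receptor, read 47.6 and 106 in Mef2c-deficient cells against 22.1, 38.0 and 27.8 in control cells. The high sum stood on Mef2c-deficient replicate 2, the array on which Igkv6-14, Igkv19-93 and Igkv14-111 were brightest. Cd3e, a chain of the T cell receptor complex that was not called, read 13843 there against 232 to 387 on the other 4 arrays.

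Sums of other lists were highest on the same array, though for macrophage markers control replicate 2 was close. Each call below is read beside the 10.1% of all probe sets called higher. Plasmacytoid dendritic cell markers, 5 of 8 measured, summed to 11942 and 79250 in Mef2c-deficient cells, against 36313, 35994 and 51147 in control cells, with 1 called higher (Tcf4, brightest on Mef2c-deficient replicate 1). Irf8 gave the largest part of each sum, with 6640 and 52822 in Mef2c-deficient cells, against 26855, 27835 and 37324 in control cells. Irf8 is also among the listed factors that bind immunoglobulin promoters and enhancers. Its log2 fold change was −0.70 and that of Bst2 was −0.24, while the other 3 were above 0. Erythroid markers, 4 of 6 measured, summed to 1357 and 4627 in Mef2c-deficient cells, against 666, 700.1 and 721 in control cells, with 1 called higher (Slc4a1, the red cell anion exchanger). Macrophage markers, 7 of 7 measured, summed to 2672 and 7195 in Mef2c-deficient cells, against 3825, 6817 and 4771 in control cells. Of these, 1 was called higher (C1qa, brightest on Mef2c-deficient replicate 1). The log2 fold change was below 0 for 4 of the 7 macrophage markers, with a median of −0.61. The part of any of these cells in the kappa values was not tested.

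The summed plasma cell markers, 7 of 7 measured, were 260969 and 222616 in Mef2c-deficient cells, against 423849, 270767 and 312854 in control cells, with 1 called lower (Sdc1), where 13.5% of all probe sets were. The mature B cell markers, 8 of 8 measured, summed to 59956 and 72537 in Mef2c-deficient cells, against 34870, 39776 and 102680 in control cells, with 2 called lower (Cd22 and Ccr7). The pre-B cell markers, 4 of 5 measured, summed to 27167 and 45354 in Mef2c-deficient cells, against 13556, 18423 and 58524 in control cells, with 1 called lower (Cd22 again). The other measured pre-B markers were not called, with log2 fold changes of 1.84 for Ms4a1, 0.74 for Cd2 and −0.12 for Il2ra. The median log2 fold change was 0.31 over the pre-B list and −0.48 over the mature B list. Cd22, an inhibitory receptor of B cells that is in both lists, fell with Ighm on both Mef2c-deficient arrays. It read 540 and 618 in Mef2c-deficient cells, against 3982, 6507 and 4146 in control cells, a log2 fold change of −3.04 (standard error 0.32, limma adjusted p = 0.102). The sums of both lists overlapped between the groups, and the largest part of the mature B sum came from Tnfrsf13c, the BAFF receptor, with 46980 and 40143 in Mef2c-deficient cells against 19378, 17107 and 57171 in control cells. The part of pre-B and mature B cells in the Ighm values was not tested.

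The label of the sorted cells was checked against 8 measured of 11 pro-B cell markers, which summed to 792980 and 266253 in Mef2c-deficient cells, against 760438, 650957 and 1000881 in control cells. The largest part of each sum came from Cd24a, with 683783 and 152861 in Mef2c-deficient cells, against 564591, 528504 and 532013 in control cells. For each marker the log2 deviation from its own mean was also taken. The median deviation was −0.49 and −0.62 on the Mef2c-deficient arrays, against 0.24, −0.03 and 1.09 on the control arrays. All 8 markers had a log2 fold change below 0, against 10390 of 23809 probe sets over the array, and 0 were called. Ebf1, a factor that sets the B cell fate, read 29295 and 3026 in Mef2c-deficient cells, against 31733, 29295 and 35416 in control cells, so it was low on Mef2c-deficient replicate 2 alone. Neutrophil markers, 7 of 7 measured, were bright on every array, with sums of 2382494 and 5106258 in Mef2c-deficient cells against 4129523, 4516738 and 2106343 in control cells, and 0 were called. Over all probe sets the 2 Mef2c-deficient arrays correlated at 0.913 with each other, against 0.972 to 0.989 among control arrays and 0.909 to 0.940 between groups. The low Ighm values were shared by both Mef2c-deficient arrays, and without either one the log2 fold change of 1425247_a_at stayed between −10.78 and −8.43.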

How the data were processed

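RNA of sorted pro-B cells, isolated with QIAshredder and RNeasy columns, was measured on 5 arrays. The authors made the deposited values, intensities on a linear scale, by RMA (background adjustment, quantile normalisation and summary by probe set). Array number limits the precision. Of 23835 probe sets, 26 control probe sets were left out. Gene names came from the platform annotation (17621 probe sets with 1 symbol, 516 with several, 5672 with none in the table). All 18 member symbols matched RefSeq.

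The log2 deposited values of all 23809 probe sets were fitted with limma 3.58.1 in R 4.3.3 (lmFit and eBayes, group only), and p-values were adjusted by Benjamini-Hochberg over the whole table. The fit was tested on simulated data. Named members were the constant region and called probe sets, plus up to 5 others per locus by smallest p, to which the other kappa members were added after their values were seen. Besides the members, the rule named Mef2c and called genes of pathway lists, each by its brightest probe set with 1 symbol. Other genes outside the rule (Igk, Igk-V21, Vpreb2 and Vpreb1, Igll1, Jchain, the cell type markers and the locus neighbours) were chosen after values were seen. Members and lists were chosen with earlier results of these data known. The alternatives were 4 scalings, array weights, a variance trend, a replicate block, a filter on dim probe sets, other thresholds, stricter member lists and leaving out each array. Promoter motifs were not searched, since the promoter table used here matched no member.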

Additional observations from a re-analysis of the deposited data

How the results depend on the processing

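Both Ighm calls held under every scaling, weighting, filter and left-out array tried, and were lost only when an adjusted p under 0.05 was asked, which left 0 members lower and 0 higher, and 0 of all probe sets in either direction. The log2 fold change of Ighm ranged from −10.78 to −8.43 at 1425247_a_at and from −8.58 to −6.79 at 1427870_x_at. The adjusted limma p ran from 0.0295 (housekeeping centring) to 0.363 (replicate block). Under housekeeping centring 9572 of the 23809 probe sets had an adjusted p under 0.05. Of the 9 housekeeping genes measured, 5 were called lower as deposited and 0 higher, with a median log2 fold change of −1.03. With values below the array median set to it, a setting added after seeing the data, the Ighm log2 fold changes were −6.92 and −5.26. Leaving out members with an _x_at or _s_at suffix left 1 lower. The count of members called higher was 5 after further quantile normalisation, 5 after cyclic loess (each time Igkv4-72, Igkv14-111, Ighv14-2, Iglv1 and 1451947_at) and 10 after housekeeping centring, and leaving out 1 array gave 1 to 5. Without Mef2c-deficient replicate 1, 5 were called higher, and without replicate 2, 4 were, in fits of 1 array against 3 that take the spread from the control arrays alone. For lower members leaving out 1 array gave 2 to 3.

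Over all probe sets, 3206 were lower and 2401 higher. Quantile normalisation gave 1832 and 1904, cyclic loess 1832 and 1591, median centring 4690 and 1558, housekeeping centring 853 and 10504, array weights 2308 and 1460, the replicate block 2184 and 1022, dim probe sets left out 2940 and 576, and a fold of 2 in signal 2025 and 1089. Leaving out 1 array gave 2163 to 3661 lower and 1404 to 4389 higher. The median log2 fold change of all probe sets shifted by −0.16, −0.18, −0.23 and 0.76 under the 4 scalings, in the order quantile, loess, median and housekeeping. Between arrays of the same replicate number the correlation of deviations was 0.10 for number 1 and −0.03 for number 2. With only 2 Mef2c-deficient arrays their deviations mirror each other, so these correlations cannot decide whether the numbers pair the arrays. The replicate block, in which control replicate 3 has no partner and adds nothing to the difference, changed no call of a member.

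Of 312 member values under an alternative, 18 changed sign, none of them a called member. Igkv15-103 turned to 0.10 (quantile), 0.29 (loess), 0.35 (housekeeping), 0.93 (weights), 0.66 (replicate block), and ranged from −1.96 to 0.78 on leaving out 1 array. Igkv6-20 turned to 0.094 (housekeeping), and ranged from −2.34 to 1.02 on leaving out 1 array (0.86 without control replicate 1), and the probe set of Igkv4-55 and Igkv4-68 to 0.14 (housekeeping). Ighv14-2 turned to −0.058 (median centring) and ranged from −0.10 to 0.57 on leaving out 1 array. On leaving out 1 array Igkv19-93 ranged from −0.44 to 3.15, Igkv6-14 from −2.26 to 3.52 and Igkv14-111 from −0.18 to 2.37, the lowest without Mef2c-deficient replicate 2 and the highest without replicate 1. The probe set of Iglc1 and Iglv1 ranged from −0.12, without control replicate 2, to 0.87. Jchain turned to 0.23 (loess) and 0.19 (housekeeping). The causes of these changes were not tested. Without detection calls, folds of dim values such as those of Ighm in Mef2c-deficient cells have no measured background beneath them.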
